A study of Mus musculus with 4 samples.

Results

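The retinoid receptor genes and their coregulators were followed in cultured tumour-initiating stem-like cells from liver tumours of C57BL/6 mice. The 9 genes were taken by symbol from the deposited table of 23359 genes: the retinoic acid receptor (RAR) genes Rara, Rarb and Rarg, the retinoid X receptor (RXR) genes Rxra, Rxrb and Rxrg, and the coregulator genes Ncor1, Nrip1 and Ncoa3. Of these, 7 had a mean of at least 1 FPKM (fragments scaled to transcript length and library size) over the 4 libraries and are called counted genes below, among 8616 counted genes in all. Rarb and Rxrg were below that level. One culture received 5 µg/ml of all-trans retinoic acid (ATRA) together with 0.5 µg/ml of suberoylanilide hydroxamic acid (SAHA), one received 5 µg/ml of ATRA, one received 0.5 µg/ml of SAHA, and one received vehicle. The treatments with ATRA, SAHA or both lasted 16 hours, and no time was recorded here for the vehicle culture. All 4 cultures grew in medium with serum, mouse EGF and dexamethasone. Serum can itself carry retinoids, and dexamethasone activates the glucocorticoid receptor. With 1 library per group, differences could not be set against a spread between replicates, and p-values and errors are therefore left out. The sources used here do not say how many mice or tumours the cells came from.

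RARs are transcription factors that bind DNA as heterodimers with RXRs. Without ligand, the pair holds corepressors such as NCoR1 (from Ncor1), a scaffold that brings the histone deacetylase HDAC3 to the gene. When ATRA binds the RAR, the corepressor leaves and coactivators such as NCOA3, a p160 protein that brings histone acetyltransferases, take its place. RIP140, the product of Nrip1, is a corepressor of another kind that binds receptors carrying a ligand, and Nrip1 is known as a retinoid-induced gene. ATRA is thus the ligand of the RARs, and SAHA inhibits the class of deacetylases that the corepressor complex uses. Of the 3 coregulator genes, Ncoa3 encodes a coactivator, so the group holds 2 corepressor genes and 1 coactivator gene.

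The start regions of the genes were searched for response elements, because ATRA acts on RAR target genes through them. RARs and RXRs bind repeats of a 6-base hexamer, here AGGTCA or its forms GGGTCA and AGTTCA and also GGTTCA, read on both strands. RefSeq promoters (GRCm38.p6, 250 bases before to 50 after each start) were given for 8 of the 9 genes, 17 promoters in all. A direct repeat of 2 hexamers with 5 bases between them was present in 1 of the 17, that of Rarb, and in 0.0974% of all 32851 promoters of the same length. None of the 17 held a repeat with 2 or 1 bases between, against 0.268% and 0.222% of all promoters. A single hexamer was present in 9 of the 17 and in 43.7% of all promoters. The Rarb stretch shows that repeat at bases -53 to -37 from the RefSeq start, and the stretches before the outermost starts of Nrip1 and Rarg, the other genes whose levels differed most, show hexamers without such a repeat. Capitals mark hexamers on either strand. The Rarb repeat is the classical element of this promoter. Its hexamers, GGTTCA and AGTTCA, are among the forms searched, so this match was fixed in advance. The count of 1 in 17 is therefore no measure of enrichment among the members. In GENCODE M21 its stretch overlaps annotated exon sequence, and the gene, transcript and strand of that exon sequence were not read. The Rarb start in the deposited table lay 266 bases inside the RefSeq start, and the table names the beta2 transcript variant. No match says only that these letters are absent from the window.
Rarb, chr14:16575507-16575535, minus strand, 5′ to 3′: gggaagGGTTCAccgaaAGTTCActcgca
Nrip1, chr16:76373828-76374077, minus strand, 5′ to 3′: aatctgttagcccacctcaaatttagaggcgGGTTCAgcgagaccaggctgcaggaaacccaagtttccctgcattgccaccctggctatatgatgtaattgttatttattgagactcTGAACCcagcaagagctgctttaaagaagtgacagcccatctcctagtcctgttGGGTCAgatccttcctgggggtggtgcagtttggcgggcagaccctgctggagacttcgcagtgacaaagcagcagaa
Rarg, chr15:102257523-102257772, minus strand, 5′ to 3′: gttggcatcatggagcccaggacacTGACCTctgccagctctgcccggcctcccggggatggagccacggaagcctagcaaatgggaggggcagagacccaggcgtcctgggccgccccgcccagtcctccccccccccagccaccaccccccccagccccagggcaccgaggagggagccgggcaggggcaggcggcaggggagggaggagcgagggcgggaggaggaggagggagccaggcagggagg

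The libraries differed in composition, which touches every ratio below. Column totals ran from 258214 to 309001 FPKM, and the 10 highest rows held 59.5% of the total in the SAHA library, against 46.4% to 47.2% in the others. The smallest steps in the values put 1 FPKM over 1 kilobase at about 106 fragments in the ATRA+SAHA library, 101 in the ATRA library, 99.2 in the SAHA library and 99.6 in the vehicle library. On that estimate Rxrg with SAHA rested on the fewest fragments of the 9 genes, about 71 to 92, depending on the transcript length taken. Rarg with ATRA, the highest level, rested on about 3874 to 4209. Of hepatocyte, endothelial, lymphocyte and erythroid markers, 0 of 31 had a mean of 1 FPKM or more, so hepatocyte genes did not mark these cells as liver. Of the macrophage markers 1 of 7 did (Cd68), and the summed list was at 4.51, 4.52, 5.47 and 3.36 FPKM with ATRA+SAHA, ATRA, SAHA and vehicle. Within it, Cd68 was at 4.26, 2.41, 5.2 and 1.89 FPKM, while Cd14 ran the other way at 0.146, 2.05, 0.15 and 1.38 FPKM. Of the cholangiocyte markers 3 of 7 did (Krt7, Sox9 and Spp1), with sums of 436, 572, 942 and 340 FPKM. These sums were nearly all Spp1, at 433, 566, 939 and 336 FPKM, while Krt7 was at 1.83 FPKM with SAHA and 2.99 with vehicle, and Sox9 at 0.910 and 1.19. Of the stellate cell or fibroblast markers 3 of 13 did (Vim, Acta2 and Des), with sums of 388, 469, 342 and 602 FPKM, most of it Vim (362, 432, 319 and 562 FPKM). The part of these lists in the results below was not tested. In bulk RNA, fewer cells that express a gene and less RNA per cell cannot be told apart.

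**Figure D1:**
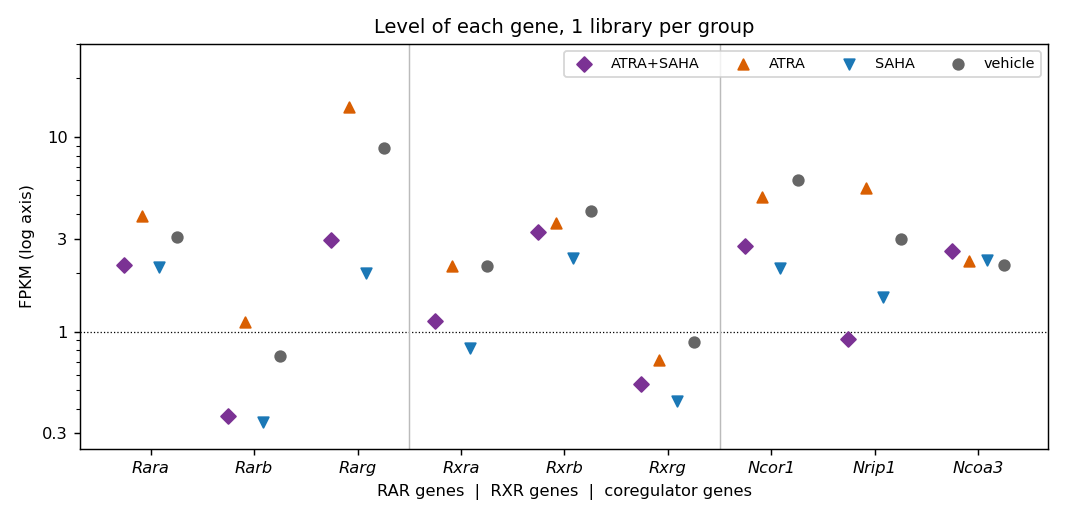
FPKM (vertical log axis) of each of the 9 genes (horizontal axis), with 1 point per library for ATRA+SAHA, ATRA, SAHA and vehicle, and a dotted line at 1 FPKM. Rarg spans 2.0 to 14.2 FPKM across the libraries, while Ncoa3 stays between 2.20 and 2.61 FPKM.

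Among the RARs, Rarg was the gene whose level differed most. It encodes RARγ, a receptor best known from skin and cartilage. Rarg was at 2.97 FPKM with ATRA+SAHA, 14.2 with ATRA, 2.0 with SAHA and 8.76 with vehicle (chromosome 15, 102234939 to 102257483, minus strand, mm10). Both libraries that had SAHA were low, and ATRA alone was the highest. With SAHA, Rarg was 4.37-fold lower than with vehicle, a difference of -1.70 on the log2(FPKM + 1) scale used throughout. A difference of 1 or more on that scale, the 2-fold mark, stands in for a test here. Of the 8616 counted genes, 488 had a lower value than Rarg in that comparison. In the combination Rarg was 2.95-fold lower than with vehicle (log2 -1.30) and 4.77-fold lower than with ATRA alone (log2 -1.93). With ATRA alone its level was 1.62-fold that with vehicle (log2 0.64), short of the mark. That value exceeded those of all but 224 counted genes.

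Rara and Rarb differed less. Rara encodes RARα, the most broadly expressed RAR, and was at 2.19, 3.93, 2.15 and 3.05 FPKM with ATRA+SAHA, ATRA, SAHA and vehicle (chromosome 11, 98937695 to 98974942, plus strand). Its order over the libraries was that of Rarb, with ATRA highest and both SAHA-treated cultures lowest. No comparison of Rara reached the mark, and its largest difference was -0.63, in the combination against ATRA. Rarb, whose promoter holds the repeat printed above, had 0.367, 1.11, 0.344 and 0.747 FPKM in those libraries (chromosome 14, 16430839 to 16575210, minus strand). With ATRA alone Rarb was at 1.49-fold its vehicle level. In the combination it was at 1.07-fold its level with SAHA (log2 0.03, and -0.16 with rescaled library totals, described below), and 3.03-fold lower than with ATRA. The pseudocount of 1 compresses such low values: the last difference was -0.63 with it and -1.38 with a pseudocount of 0.1.

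The 3 RXR genes had lower values in both SAHA-treated cultures than with vehicle, short of the 2-fold mark in each case. Rxrb, a widely expressed RXR, was at 3.26 FPKM with ATRA+SAHA, 3.62 with ATRA, 2.40 with SAHA and 4.14 with vehicle (chromosome 17, 34031811 to 34038403, plus strand). With SAHA it was 1.73-fold below vehicle, the narrowest range among the receptor genes. Rxra encodes RXRα, the main RXR of liver, and had 1.13, 2.18, 0.826 and 2.18 FPKM in those libraries (chromosome 2, 27677200 to 27763319, plus strand). The ATRA and vehicle values of Rxra were nearly equal, and the SAHA value was 2.64-fold below vehicle. On the log2 scale this was -0.80, and it passed the mark at -1.30 with a pseudocount of 0.1. Rxrg, an RXR gene of muscle and brain, was at 0.536, 0.714, 0.441 and 0.886 FPKM (chromosome 1, 167598361 to 167639623, plus strand), highest with vehicle.

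**Figure D2:**
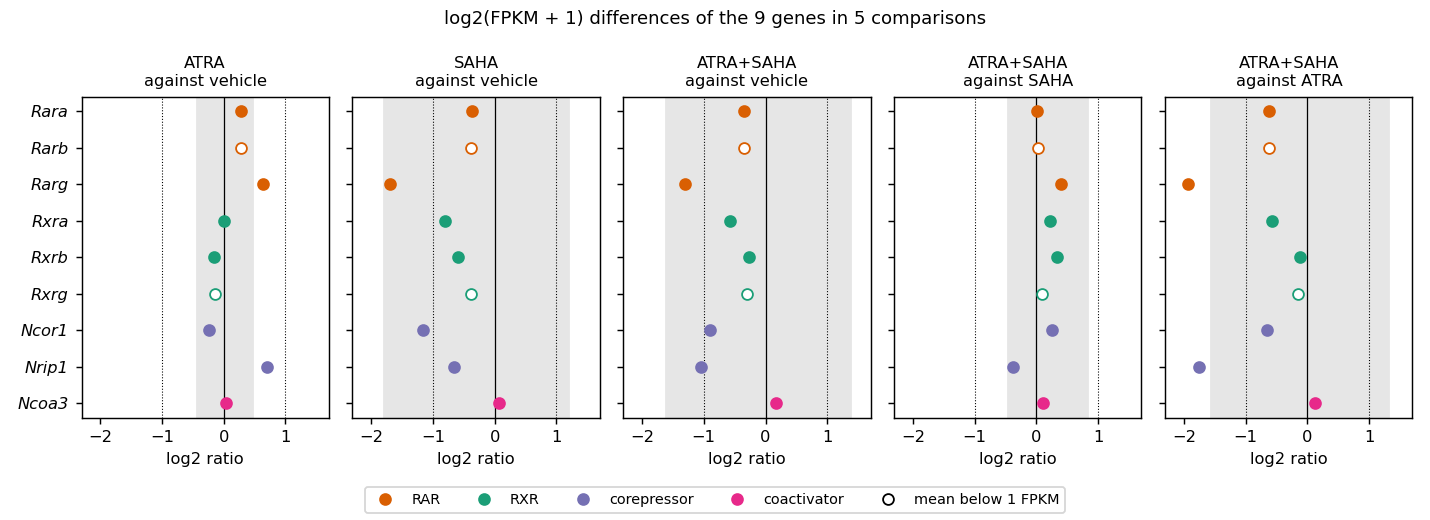
Differences in log2(FPKM + 1) of the 9 genes in 5 comparisons, 1 panel each, with dotted lines at the 2-fold mark. Grey spans the middle 90% of 8616 counted genes, and open points are genes with a mean below 1 FPKM. Rarg at -1.93 and Nrip1 at -1.75 lie left of the grey in the combination against ATRA.

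Among the coregulators, Nrip1 and Ncor1 passed the mark in different comparisons and Ncoa3 in none. Nrip1 was at 0.921 FPKM with ATRA+SAHA, 5.46 with ATRA, 1.51 with SAHA and 2.97 with vehicle (chromosome 16, 76290861 to 76373049, minus strand). The ATRA library was the highest and the combination the lowest, below SAHA alone. With ATRA alone Nrip1 was at 1.83-fold its vehicle level (log2 0.70), a value that 179 counted genes exceeded. In the combination it fell 3.23-fold against vehicle (log2 -1.05) and 5.93-fold against ATRA (log2 -1.75). Against SAHA alone, the combination had 1.64-fold less Nrip1 (log2 -0.39).

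Ncor1 was at 2.74 FPKM with ATRA+SAHA, 4.92 with ATRA, 2.13 with SAHA and 5.97 with vehicle (chromosome 11, 62281472 to 62457332, minus strand). Both SAHA-treated cultures were low, and vehicle was the highest. With SAHA Ncor1 fell 2.80-fold (log2 -1.15), but with library totals rescaled outside small RNAs and the 10 highest rows the value was -0.83, short of the mark. In the combination it was 2.18-fold below vehicle (log2 -0.90), and there the rescaled value of -1.05 passed the mark. In the deposited table the coordinates of the Ncor1 row overlap those of Ttc19, a mitochondrial respiratory chain assembly gene. Ttc19 was at 1.32, 1.14, 1.40 and 1.16 FPKM with ATRA+SAHA, ATRA, SAHA and vehicle, an order that differs from that of Ncor1.

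Ncoa3 had the narrowest range of the 9 genes. It was at 2.61, 2.30, 2.34 and 2.20 FPKM with ATRA+SAHA, ATRA, SAHA and vehicle (chromosome 2, 165992636 to 166073242, plus strand). Its largest difference was 0.17, in the combination against vehicle, and with rescaled totals 0.40, in SAHA against vehicle. With 1 library per group, this range does not show that Ncoa3 was the same in all cultures. The level of Ncor1 over that of Ncoa3 was 1.05 with ATRA+SAHA, 2.14 with ATRA, 0.910 with SAHA and 2.72 with vehicle, and no scaling between libraries alters such a ratio. Nrip1 over Ncoa3 was 0.353, 2.37, 0.645 and 1.35 in the same order.

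Counted over the group, the comparisons with a SAHA-treated culture and one without SAHA held all the calls. With SAHA against vehicle, 0 of the 7 counted members were higher and 2 lower (Rarg and Ncor1), where 7.88% of all counted genes were higher and 16% lower. Their median log2 ratio was -0.66, against -0.12 over all counted genes. With the combination against vehicle, 0 were higher and 2 lower (Rarg and Nrip1), where 11.1% of all were higher and 12.6% lower, and the medians were -0.58 and 0.04. In the combination against ATRA 0 were higher and 2 lower (Rarg and Nrip1), where 10.5% of all were higher and 11.9% lower, with medians of -0.63 and 0.04. With ATRA against vehicle 0 of 7 passed in either direction, where 0.917% of all were higher and 1.2% lower. In the combination against SAHA 0 of 7 passed, where 3.04% of all were higher and 0.929% lower. With 7 genes, 2 calls are a count too small to set apart from those shares. The 3 comparisons that hold calls share libraries with one another and do not count as separate evidence. Of all 9 genes, 8 were below 0 in SAHA against vehicle, where 56.6% of all counted genes were, and Ncoa3 was the exception.

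**Figure D3:**
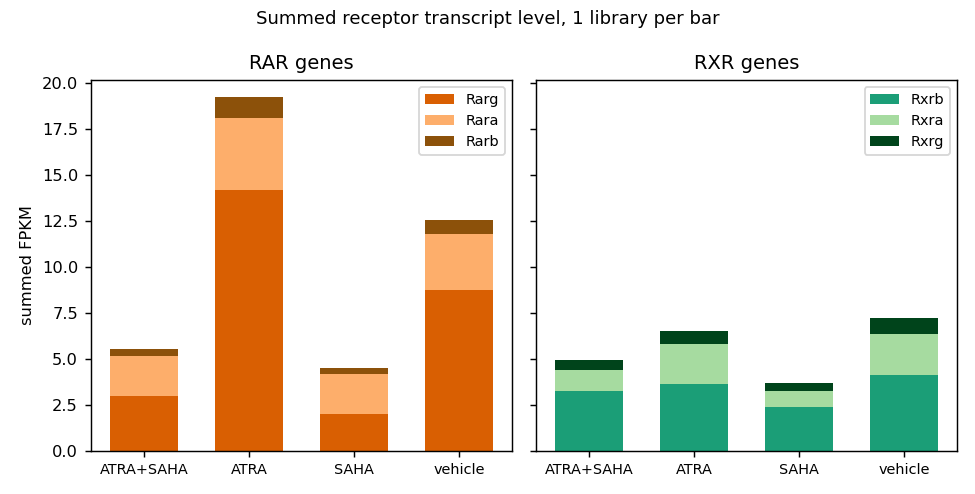
Summed FPKM (vertical axis) of the RAR genes (left) and RXR genes (right), 1 bar per library for ATRA+SAHA, ATRA, SAHA and vehicle, with each gene's part stacked. The RAR bars span 4.50 to 19.2 FPKM and the RXR bars 3.67 to 7.21 FPKM.

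FPKM is scaled to transcript length, so levels of the receptors can be added. The RAR genes summed to 5.52 FPKM with ATRA+SAHA, 19.2 with ATRA, 4.50 with SAHA and 12.6 with vehicle. The RXR genes summed to 4.93, 6.52, 3.67 and 7.21 FPKM. RAR transcripts thus exceeded RXR transcripts in all 4 libraries, 1.12-fold with ATRA+SAHA, 2.95-fold with ATRA, 1.23-fold with SAHA and 1.74-fold with vehicle. Rarg made up 53.8% of the RAR sum with ATRA+SAHA, 73.7% with ATRA, 44.5% with SAHA and 69.8% with vehicle. With SAHA alone Rara was the largest part, at 47.8%. Rxrb was the largest part of the RXR sum in each library, at 66.2%, 55.6%, 65.5% and 57.4%. Against vehicle, the RAR sum was 2.79-fold lower with SAHA and the RXR sum 1.97-fold lower. These are ratios of 0.359 and 0.509, and with rescaled totals they were 0.492 and 0.697.

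Set among 48 nuclear receptor genes, Rarg ranked first with ATRA and with vehicle. It ranked 5 with ATRA+SAHA and 7 with SAHA. In both of those libraries the highest receptor gene was Esrra, which encodes the oestrogen-related receptor ERRα, a regulator of mitochondrial genes, at 7.98 and 5.06 FPKM. Receptor genes at 1 FPKM or more numbered 13 with ATRA+SAHA, 18 with ATRA, 12 with SAHA and 15 with vehicle. Over all genes these numbers were 8002, 8388, 7781 and 8542, also lower in the SAHA-treated cultures. Rarb and Rxrg ranked between 16 and 21 in every library.

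**Figure D4:**
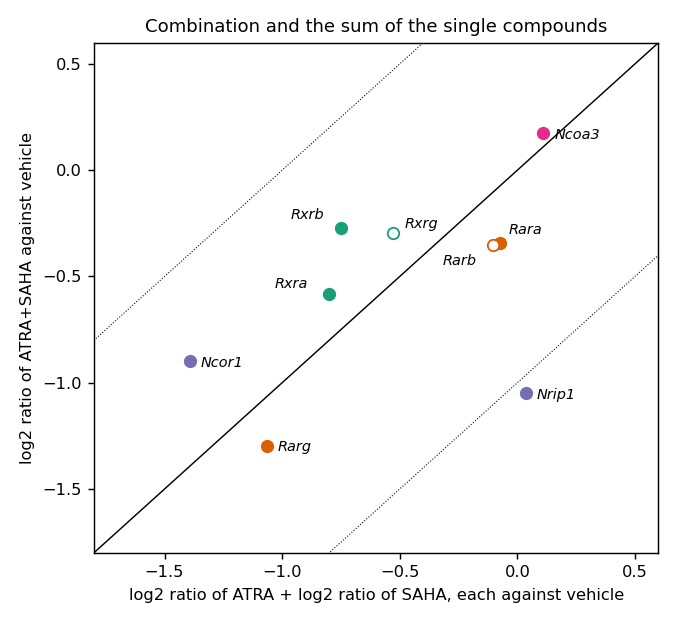
Log2 ratio of ATRA+SAHA against vehicle (vertical axis) and the sum of the log2 ratios of ATRA and SAHA against vehicle (horizontal axis) for the 9 genes, with open points for means below 1 FPKM. The solid line marks equal values and the dotted lines a departure of 1. Nrip1, at 0.04 on the horizontal and -1.05 on the vertical axis, lies beyond the lower dotted line.

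The combination was also set against what the single compounds would add up to. The sum of the log2 ratios of ATRA and SAHA was taken from the ratio of the combination, all against vehicle, to give a departure. Nrip1 departed by -1.09: its single ratios summed to 0.04 and the combination stood at -1.05. It was the 1 of 7 counted members past a departure of 1 in either direction, where 4.69% of all counted genes departed upwards and 1.73% downwards. Of the counted genes, 132 departed further down than Nrip1. Ncor1 and Rxrb departed upwards, by 0.49 and 0.48, short of the mark. Rarg departed by -0.23. Its ATRA ratio was 0.64 without SAHA, and 0.40 in the combination against SAHA, which became -0.07 with rescaled totals. The median departure over all counted genes was 0.15, and -0.22 with rescaled totals. For Nrip1 the departure was -1.33 with rescaled totals and -1.25 after median centring.

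Known RAR target genes outside the group gave the setting for these values. Of 24 such targets in the table, 9 were counted. With ATRA against vehicle, 2 were higher (Dhrs3 and Tgm2) and 0 lower, with a median of 0.11. Of all counted genes, 0.917% were higher and 1.2% lower. Dhrs3 passed the filter at a mean of 1 FPKM only through its ATRA value, so the filter and its call are not independent. In the combination against SAHA, which shares no library with the first comparison, 0 were higher and 0 lower. There 3.04% of all counted genes were higher and 0.929% lower. The median of the targets was 0.30, against 0.14 over all counted genes. The sign of such a median depended on the scaling: for the 12 counted targets with the members among them it was 0.17, then 0.01 after median centring and -0.28 with rescaled totals. Dhrs3, a retinaldehyde reductase gene, was at 0.153 FPKM with ATRA+SAHA, 15.5 with ATRA, 0.119 with SAHA and 0.0780 with vehicle. Tgm2, the tissue transglutaminase gene, had 4.45, 14.7, 3.0 and 3.98 FPKM in those libraries. Both were highest with ATRA alone, as Nrip1 and Rarg were. Not all targets ran this way: of the 12, 9 were above 0 with ATRA against vehicle and 3 below it. The members Rara, Rarg and Nrip1 are among the 9. Of all counted genes, 49.5% were above 0 in that comparison. Egr1, a target gene, was the lowest of the 12 at -0.70. It was at 42.1 FPKM with ATRA+SAHA, 2.64 with ATRA, 34.1 with SAHA and 4.92 with vehicle.

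The corepressor complex around NCoR1 held genes that moved in both directions. Of 10 counted genes of that complex and of the related SIN3 complex, 2 were higher and 3 lower with SAHA against vehicle, and their median was -0.49. Of all counted genes, 7.88% were higher and 16% lower in that comparison, with a median of -0.12. Ncor1, Tbl1x and Tbl1xr1 were the lower ones, and Hdac3 and Sin3b the higher ones. Tbl1x, which encodes a WD40 subunit that binds NCoR1, was at 2.11 FPKM with SAHA and 8.94 with vehicle. Tbl1xr1, its close relative, was at 0.802 and 2.90 FPKM. Tbl1xr1 was below 1 FPKM in both SAHA-treated cultures and passed the filter only through the others. Sin3b, a scaffold of another deacetylase complex, was at 23.6 FPKM with SAHA and 8.25 with vehicle, and Hdac3 at 10.7 and 4.81. With rescaled totals 3 were higher and 1 lower (Tbl1x), where 1450 of the 8616 counted genes were higher and 905 lower. In the combination against vehicle 3 were higher and 2 lower (1 higher and 3 lower with rescaled totals). There 11.1% of all counted genes were higher and 12.6% lower, and with rescaled totals 663 of the 8616 were higher and 1323 lower. With ATRA alone 0 of the 10 passed, where 0.917% of all counted genes were higher and 1.2% lower.

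Corepressors of other kinds and coactivators were counted in the same way. Of 8 counted genes on the list of Nrip1, which also holds Ncor1, 3 were lower and 0 higher with SAHA, with a median of -0.64. Of all counted genes, 16% were lower and 7.88% higher with SAHA, with a median of -0.12. Ctbp2 and Ctbp1, which encode the CtBP corepressors that RIP140 binds, were at 1.11 FPKM with SAHA against 8.01 with vehicle, and at 3.25 against 10.0. In the combination against vehicle the lower ones were Nrip1, Ctbp1 and Ctbp2, where 12.6% of all counted genes were lower. Of 21 counted coactivator genes, Ncoa3 included, 1 was higher and 3 lower with SAHA, with a median of -0.43 (4 higher and 2 lower with rescaled totals). Before rescaling, the coactivator counts lay near the shares of all counted genes. With rescaled totals, 1450 of the 8616 counted genes were higher and 905 lower with SAHA. In the combination against vehicle 3 were higher and 5 lower, with a median of -0.46 (2 higher and 7 lower with rescaled totals). Of all counted genes, 11.1% were higher and 12.6% lower there, with a median of 0.04. With rescaled totals, 663 of the 8616 were higher and 1323 lower there. With a pseudocount of 0.1 in place of 1, 9 of the 21 passed in either direction with SAHA and 12 in the combination. Of the 8616 counted genes, 1099 were then higher and 1946 lower with SAHA, and 1484 and 1554 in the combination. Kat2b, an acetyltransferase gene, was at 0.306 FPKM with SAHA and 2.38 with vehicle, and Carm1, an arginine methyltransferase gene, at 1.23 and 5.12. Kat2b and Pprc1, both called lower, were below 1 FPKM in both SAHA-treated cultures and passed the filter only through the others. Ncoa4, known for ferritin turnover, was the higher one, at 15.5 and 6.37 FPKM. The other p160 genes, Ncoa1 and Ncoa2, had means below 1 FPKM. Ncoa2 was at 0.484 FPKM with ATRA+SAHA, 1.54 with ATRA, 0.457 with SAHA and 1.51 with vehicle.

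**Figure D5:**
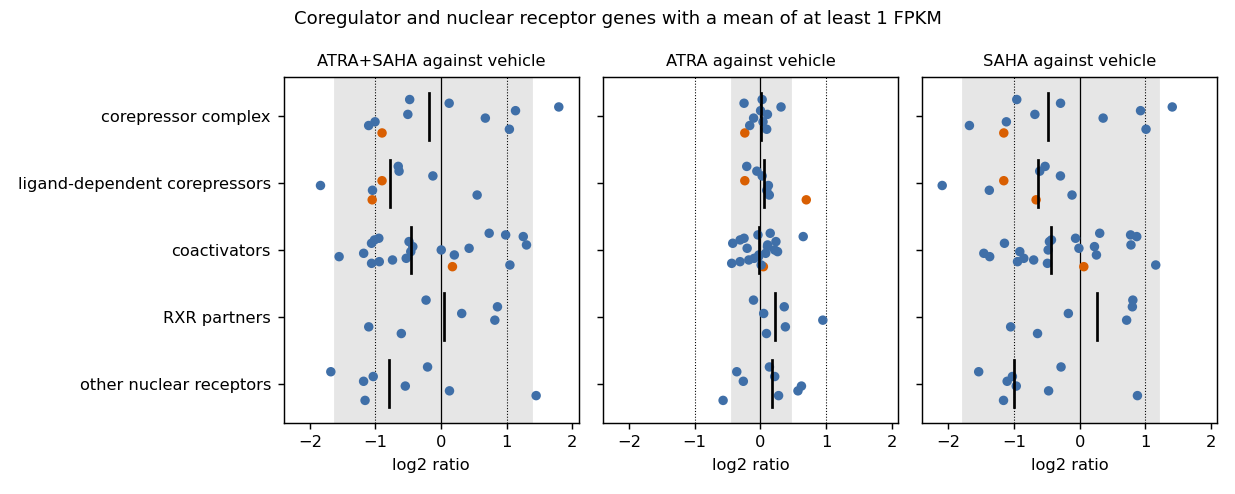
Log2 ratios (horizontal axis) of counted genes in 5 lists (rows) for ATRA+SAHA, ATRA and SAHA against vehicle, with orange for the members, black bars for list medians, dotted lines at the 2-fold mark and grey for the middle 90% of 8616 counted genes. Ctbp2 at -2.09 with SAHA and Sin3b at 1.79 with ATRA+SAHA are the outermost points.

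Other nuclear receptors were compared on the same terms. Of 6 counted receptors that pair with RXR, outside the RARs, 0 were higher and 1 was lower with SAHA against vehicle, with a median of 0.27. Of all counted genes, 7.88% were higher and 16% lower in that comparison, with a median of -0.12. The lower one was Thrb, the thyroid hormone receptor β gene, at 0.309 FPKM with SAHA and 1.71 with vehicle, and it missed the mark after median centring and with rescaled totals, where 2 others were higher (Nr1h2 and Nr4a1). Vdr, the vitamin D receptor gene, was at 1.26 FPKM with ATRA+SAHA, 1.48 with ATRA, 1.10 with SAHA and 0.280 with vehicle. The pseudocount of 1 compresses such values. In plain FPKM with SAHA, Vdr, Nr4a1 and Nr1h2 were at 3.94-, 2.69- and 2.06-fold their vehicle levels, and Thrb and Thra at 0.181- and 0.488-fold. With a pseudocount of 0.1, 4 of the 6 passed in either direction. Of the 8616 counted genes, 1099 were then higher and 1946 lower. Of 8 further counted receptors, 0 were higher and 4 lower with SAHA, with a median of -0.99, beside 7.88% higher and 16% lower of all counted genes. With a pseudocount of 0.1, 7 of the 8 passed in either direction. Nr2f2, which encodes COUP-TFII, a factor that can compete with RARs for DNA repeats, was at 0.311 FPKM with SAHA and 2.81 with vehicle. Its relative Nr2f1 was at 0.332 and 1.71 FPKM, and Nr2c2, another of the lower ones, at 0.543 and 2.32. Nr2f2, Nr2f1, Nr2c2 and Thrb were below 1 FPKM in both SAHA-treated cultures and passed the filter only through the other cultures. Nr4a1 passed it only through its SAHA value. For these genes the filter and the call are not independent. Nr3c1, the glucocorticoid receptor gene, was at 1.09 FPKM with SAHA and 3.66 with vehicle. Median centring left 2 of the 4 lower (Nr3c1 and Nr2f2) and made Esrra higher, and rescaled totals left Nr2f2 alone as lower and Esrra as higher. Of the 8616 counted genes, 881 were higher and 1157 lower after centring, and 1450 and 905 with rescaled totals.

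The genes with the pattern most like each called member were found among 8021 others, by the root mean square distance over the 3 log2 ratios to vehicle. For Rarg these were Padi4, a peptidylarginine deiminase gene, at 0.10, Tpm2, a tropomyosin gene, at 0.13, and Clcf1, a cytokine gene, at 0.14. For Nrip1 they were Bhlhe40, a transcriptional repressor gene, at 0.11, Ak1, an adenylate kinase gene, at 0.15, and Hnrnpm, an RNA-binding protein gene, at 0.17. Only 6 genes lay within 0.2 of Nrip1 and 15 within 0.2 of Rarg, while 261 lay that near to Ncor1. The nearest to Ncor1 were D16Ertd472e at 0.02, Uba3, a NEDD8-activating enzyme gene, at 0.04, and Polr3e, an RNA polymerase III subunit gene, at 0.05. Each distance rests on 4 libraries, and the 3 ratios share the vehicle library.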

How the data were processed

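Per the labels' protocols, RNA of each of the 4 cultures was treated with DNase and freed of ribosomal RNA, then sequenced. The submitters' processing notes name Trimmomatic 0.32, Cuffdiff and the mm10 build. The sources used here name neither the aligner, the Cuffdiff version and the annotation, nor the strand setting and the normalization across libraries. The authors deposited FPKM in 1 column for each culture. FPKM carry no read counts, so no count test was run.

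Values were taken as log2(FPKM + 1), with a filter at a mean of 1 FPKM over the libraries. No test was run on these single libraries, and a difference of 1 or more was called. The counting of calls was tested on simulated data, which says nothing of variation between cultures. Depth was estimated from the smallest step of FPKM times transcript length, for genes with 1 GENCODE M21 transcript of 1000 to 4000 bases, over 966 to 1018 low genes per library. Strands are from GENCODE M21, and promoters from RefSeq. In 27 rows, symbols turned into dates were resolved from their descriptions. The members and gene lists were chosen with earlier results of these data known. Of each list, counts and up to 4 members with large differences were named, and others are named as singled out after their values were seen (Hdac3, Ncoa1, Ncoa2, Vdr and Ttc19). Alternatives were a pseudocount of 0.1, no filter, a minimum mean of 5 FPKM, ratios shifted to a median of 0 over counted genes, and totals rescaled outside small RNAs and the 10 highest rows. Python 3.11.15, numpy 2.4.6 and pandas 2.3.3 were used. A gene of the corepressor list is not reported here.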

Additional observations from a re-analysis of the deposited data

Results flagged for a closer look

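In 3 counted members, ATRA went with opposite directions in the cultures with and without SAHA. Each direction rests on 1 library a side and the difference was not tested. The gap given for each gene is the departure from additivity reported above in another form, and is no separate result. Nrip1 had a log2 ratio of -0.39 for ATRA+SAHA against SAHA and 0.70 for ATRA against vehicle, a gap of -1.09. For Ncor1 the ratios were 0.26 and -0.24, a gap of 0.49. Rxrb had 0.33 and -0.15, a gap of 0.48. With rescaled totals the ATRA+SAHA against SAHA ratios of Ncor1 and Rxrb were -0.22 and -0.17, so that both had 1 direction in either setting. Nrip1 kept opposite directions under the scalings tried. Other counted members gained them. With rescaled totals, ATRA against vehicle and ATRA+SAHA against SAHA were 0.15 and -0.45 for Rara, and 0.48 and -0.07 for Rarg. After median centring they were 0.29 and -0.14 for Rara, and 0.05 and -0.05 for Ncoa3.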

How the results depend on the processing

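No paired analysis was possible because each group had 1 library. For the same reason no library could be left out. With a mean of at least 5 FPKM only Rarg was left of the members: 1 of 1 then passed the 2-fold mark in SAHA against vehicle, in ATRA+SAHA against vehicle and in ATRA+SAHA against ATRA, against 2 of 7 each, and 0 departed from additivity by 1 or more, against 1. With rescaled totals, 1 of 7 (Rarg) passed in SAHA against vehicle, against 2. There 1450 of the 8616 counted genes were higher and 905 lower. All other counts of members were within 1.5 times, under the pseudocount of 0.1, without a filter, after centring and after rescaling. Of 162 values of single members under an alternative, 157 stayed on their side of the mark, 4 newly passed it, 1 no longer did and 0 called values changed sign. Small differences did change sign: the ATRA+SAHA against SAHA ratios of 8 of the 9 genes were above 0, but with rescaled totals all 9 were below it. Rescaling multiplied the values by 0.864 (ATRA+SAHA), 0.888 (ATRA), 1.37 (SAHA) and 1 (vehicle). Over all counted genes, rescaling put the median log2 ratio at 0.21 in SAHA against vehicle (-0.12 without it), at -0.12 in ATRA against vehicle, at -0.11 in ATRA+SAHA against vehicle and at -0.33 in ATRA+SAHA against SAHA (0.14 without it). The higher share of calls in SAHA against vehicle was 33.0%, 43.2% after centring and 61.6% after rescaling. In ATRA+SAHA against vehicle these shares were 46.7%, 43.2% and 33.4%, and in ATRA+SAHA against SAHA 76.6%, 61.7% and 23.0%. Of 150 counts for gene lists, 33 moved by more than 1.5 times, most of them with the pseudocount of 0.1 or the filter at 5 FPKM. For the departure the higher share was 73.1%, 57.1% and 33.6%. Low levels limit Rarb and Rxrg, whose fragments are few by the depth estimate.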
